A study of Rattus norvegicus with 6 samples.

Results

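The stretch of rat chromosome 13 that lies 1 to 3.5 Mb below a gene promoter was examined for contacts with that promoter. Its members are 636 EcoRI fragments that start between 52028242 and 54570180 of genome build rn5. They were chosen by their coordinates, not by their own read numbers; the viewpoint from which distances are counted was itself placed from reads. They are part of 1464 fragments of chromosome 13 for which read numbers could be recovered, and of 794445 fragments listed genome-wide. The stretch ends at 54577281 and spans 2549 kb.

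Contacts were read by 4C-seq from endothelial cells of the heart in 2 rat strains. SS is the inbred Dahl salt-sensitive strain, labelled SS/JrHsdMcwi. SS13BN, labelled SS-13BN/Mcwi, is a consomic strain in which chromosome 13 comes from the Brown Norway rat and the remaining genome from SS. The comparison therefore sets the Brown Norway copy of the stretch, and of the viewpoint itself, against the SS copy on a shared background. In both strains the cells were at passage 2, came from animals of both sexes that were pooled, and were fixed with 2% formaldehyde for 10 min. No age and no treatment is given. The build rn5 was made from the Brown Norway rat, so on chromosome 13 the SS13BN reads come from the strain of the reference and the SS reads do not. A difference in contacts and a difference in how reads match the reference cannot be told apart by this design. The labels give 3 libraries per strain. Replicate 3 of each strain lists all of chromosome 13 at 0, so 2 libraries per strain, SS 1, SS 2, SS13BN 1 and SS13BN 2, carry the results. Nothing in the labels says whether libraries of 1 strain are separate animals or separate cultures. A p-value here therefore speaks only to how far these libraries spread, and that spread may be technical. Where 4 values follow each other below, they stand in the order SS 1, SS 2, SS13BN 1, SS13BN 2. The tables hold no expression values, so the endothelial identity of the cells could not be checked against marker genes.

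4C-seq records which pieces of the genome lie close to 1 chosen piece, the viewpoint. Fixed chromatin is digested and its ends are ligated, and whatever DNA became joined to the viewpoint is then amplified and read by sequencing. Because a chromosome is a flexible polymer, pieces near the viewpoint along the chromosome meet it often by chance, and the number of contacts falls with distance. A loop to an enhancer or to an insulator bound by CTCF appears as a local rise over that decline, and the border of a topologically associating domain as a drop. Enhancer contacts mostly lie within a domain, and a stretch more than 1 Mb from a promoter usually holds the sparse part of the profile.

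The viewpoint was placed at 55570181, where the fragment with the largest median read number begins. Read numbers were recovered from the deposited scores, and came out whole within 0.02 reads for 100% of fragments in 3 libraries and for 99.92% in SS13BN 2. A fragment with at least 1 read is called captured. The read-scored part of chromosome 13 held 188887, 370530, 180973 and 144406 reads. SS 2 was the deepest library. "Scaled reads" below are reads divided by each library's total outside 10 kb of the viewpoint and multiplied by the mean of the 4 totals. The reads carry no molecular identifiers, so they are not independent molecules, and intervals from counts cover counting error only.

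The fragments of the stretch differed widely in length, from 12 to 35574 bp, with a median of 2441 bp. Of the 636 fragments, 91 were 500 bp or shorter and 54 were longer than 10000 bp. The first fragment, 52028242 to 52029614, had 1, 2, 3 and 1 reads. The last fragment, 54568315 to 54577281, had 37, 82, 53 and 46 reads. Just outside it, the fragment 54577282 to 54577452 had 36, 118, 34 and 47 reads. The next one, 54577453 to 54590918, had 638, 260, 49 and 181. Below the first fragment the tables hold scores of another kind, which were not set beside the reads.

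The whole stretch took a small share of the reads. It held 13351, 35811, 14279 and 13817 reads. These are 7.64%, 10.1%, 8.59% and 9.99% of each library's reads outside 10 kb of the viewpoint. The lowest and the highest share both belonged to SS, so the strains overlapped. The share was 8.86% ± 1.72 in SS and 9.29% ± 0.985 in SS13BN (SD, n = 2 each), a difference of 0.432 percentage points (exact two-sided permutation test, p = 1; with 2 against 2 libraries no p can fall below 0.333). The difference turned to -0.787 points without SS 1 and to -0.265 points without SS13BN 2.

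Most fragments of the stretch were reached at least once in each library. In SS 1, 451 of the 636 fragments were captured, 70.9% (95% Wilson interval 67.3 to 74.3). In SS 2, 496 were captured, 78.0% (74.6 to 81.0). In SS13BN 1, 482 were captured, 75.8% (72.3 to 79.0). In SS13BN 2, 477 were captured, 75.0% (71.5 to 78.2). Both SS13BN libraries fell between the SS libraries. The captured share was 74.4% ± 5.00 in SS and 75.4% ± 0.556 in SS13BN (SD, n = 2 each), a difference of 0.943 points (exact two-sided permutation test, p = 1).

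The captured share was also compared at equal depth. Across libraries it did not simply follow depth. SS13BN 2, with the fewest reads outside 10 kb of the viewpoint (138360), had 75.0%, and SS 1, with 174757, had 70.9%. Thinning can only lower the share. The shares expected after thinning every library to the smallest library total were 69.2%, 71.8%, 74.4% and 75.0%. The strains then no longer overlapped, with SS13BN higher by 4.22 points, and p stood at 0.333, the smallest the exact permutation test can give here. In the libraries as deposited, which differ in depth, the difference of 0.943 points turned to -0.236 points where a fragment needed 2 reads to count, to -5.66 points at 10 reads, and to -2.59 points without SS 1. SS 2, the deepest library, had 54.2% of fragments at 10 or more reads, against 40.9%, 41.2% and 42.6% in SS 1, SS13BN 1 and SS13BN 2.

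Captured fragments had few reads. The median over captured fragments was 13, 29.5, 12 and 12 reads. A single read was all that 44, 33, 43 and 49 of them had. The highest fragment had 275, 1844, 586 and 292 reads. It was a different fragment in each library. In SS 1 it was 54528351 to 54531937, which had 275, 45, 69 and 43 reads. The 10 highest fragments of each library held 14.7%, 19.3%, 19.97% and 15.6% of the stretch's reads, and the 64 highest held 52.6% to 55.7%.

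Reads thinned out with distance, though not at every step. In classes of 250 kb, the scaled reads per kb were 18.7 ± 1.98 at 1 to 1.25 Mb (SD, n = 4 libraries) and 19.1 ± 4.45 at 1.25 to 1.5 Mb, and these neighbours did not differ beyond their spread. They were 14.3 ± 2.76 at 1.5 to 1.75 Mb, 7.35 ± 0.946 at 1.75 to 2 Mb, 3.73 ± 0.768 at 2 to 2.25 Mb and 5.31 ± 0.866 at 2.25 to 2.5 Mb. Farther out they were 2.16 ± 0.271 at 2.5 to 2.75 Mb and 2.33 ± 0.709 at 2.75 to 3 Mb, which did not differ beyond their spread. They were 1.19 ± 0.519 at 3 to 3.25 Mb and 1.07 ± 0.385 at 3.25 to 3.5 Mb, again within the spread of each other. Reads per kb at 1 to 1.25 Mb were 25.8, 21.4, 14.5 and 14.2 times those at 3.25 to 3.5 Mb. Both SS libraries thus had a larger ratio than both SS13BN libraries, a difference noticed after the values were seen and not tested.

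The decline was not even. The class at 1.5 to 1.75 Mb held 2.06, 1.59, 1.55 and 2.74 times the reads per kb of the class beyond it. That class in turn held 1.83, 1.78, 2.68 and 1.78 times those of the class at 2 to 2.25 Mb. Beyond this the order turned once in all 4 libraries. The class at 2 to 2.25 Mb held only 0.775, 0.751, 0.508 and 0.807 times the reads per kb of the class at 2.25 to 2.5 Mb. The farther class also had more fragments per 100 kb, 29.6 against 23.1. Counted per fragment, the nearer class held 0.996, 0.964, 0.653 and 1.04 times the reads of the farther one, so the rise was seen per kb in 4 libraries and per fragment in 3, with 2 of these within 5% of equal.

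**Figure D1:**
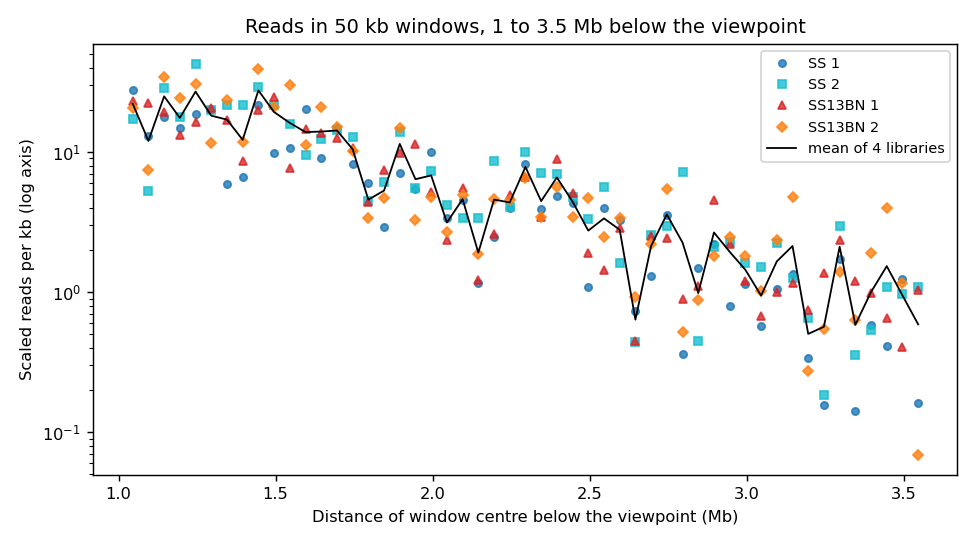
Scaled reads per kb (log axis) in the 51 windows of 50 kb, plotted against the distance of each window's centre below the viewpoint in Mb. Each symbol is 1 library and the black line is the mean of the 4 libraries. The windows fall from a mean of 27.5 at 1.45 Mb to 0.566 at 3.25 Mb. The symbols of the strains overlap in most windows and do not overlap in 12 of the 51.

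The plot of reads in windows shows the same decline at a finer scale. Spearman's correlation between distance and reads per kb across the 51 windows was -0.898, -0.883, -0.900 and -0.840. Across the 636 fragments the correlation between distance and reads was -0.730, -0.678, -0.680 and -0.728. These are descriptions across neighbouring pieces of 1 chromosome that share a library, and no test was made of them.

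Divided at 2 Mb, the nearer section held 10.6, 27.7, 11.3 and 11.03 reads per kb and the farther section 1.801, 5.22, 1.93 and 1.79. The ratio of nearer to farther was 5.86, 5.30, 5.85 and 6.15, and the strains overlapped. On the log2 scale the strains differed by 0.11, with 2.48 ± 0.10 in SS and 2.59 ± 0.05 in SS13BN (SD, n = 2 each; exact two-sided permutation test, p = 0.667). The difference was 0.18 without SS 1, 0.03 without SS 2 and 0.07 without SS13BN 2. The distance within which 50% of the stretch's reads lay ran from 1.489 to 1.513 Mb over the 4 libraries, and that for 90% from 2.415 to 2.497 Mb.

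The captured share was near its ceiling within 2 Mb, where most fragments had many reads, and so could show little change there. Its mean stayed between 95.9% and 99.6% in the 4 classes up to 2 Mb. It was 85.1% at 2 to 2.25 Mb, 72.8% at 2.5 to 2.75 Mb and 42.3% at 3.25 to 3.5 Mb. The last 24 fragments, beyond 3.5 Mb, were captured at 31.3%. Of the 213 fragments within 2 Mb, 202 (94.8%) had reads in all 4 libraries and 0 had reads in none. Of the 423 fragments beyond 2 Mb, 129 (30.5%) had reads in all 4 and 24 in none.

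**Figure D2:**
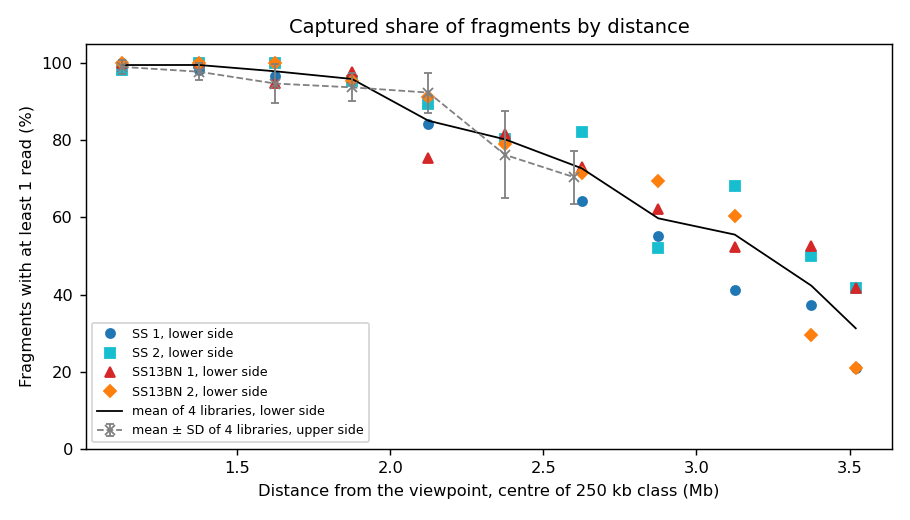
Share of fragments with at least 1 read, in percent, against distance from the viewpoint in Mb, in classes of 250 kb (the last class on each side is shorter). Coloured symbols are single libraries on the lower side, the black line is their mean, and the dashed grey line is the mean ± SD of the same 4 libraries on the upper side; on the lower side the mean falls from 99.5% at 1 to 1.25 Mb to 42.3% at 3.25 to 3.5 Mb.

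In all, 331 of the 636 fragments were captured in 4 libraries, 102 in 3, 97 in 2, 82 in 1 and 24 in 0. The fragments reached in every library were longer and nearer. Their median length was 3855 bp and their median distance 1.76 Mb, against 814 bp and 3.32 Mb for the 24 that no library reached. The longest of the 24 were 52338320 to 52345208 (6889 bp), 52083475 to 52089604 (6130 bp), 52402766 to 52407789 (5024 bp), 52892751 to 52897377 (4627 bp) and 52127599 to 52131299 (3701 bp). All 5 lie farther than 2 Mb from the viewpoint. No read was found there in any of the 4 libraries. Whether reads can be placed in these fragments was not tested.

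The fragments 52338320 to 52345208 and 52402766 to 52407789 lie in a pattern of fragment lengths that occurs in 2 places. From 52332907 to 52362661 and from 52395488 to 52425242, both 29755 bp long and with starts 62581 bp apart, 7 fragments had the same lengths to the base in the same order. In the remaining place the lower copy has the single fragment of 6889 bp and the upper copy 2 fragments of 1865 and 5024 bp. The lower copy had 10, 16, 9 and 22 reads and the upper copy 13, 12, 5 and 24. The longest fragment of each, 16302 bp, had 5, 5, 4 and 19 reads in the lower copy and 4, 4, 4 and 23 in the upper. Near-identical sequence could divide reads between the copies or lose them, so read numbers of these fragments and of the windows that hold them, 52300001 to 52350000, 52350001 to 52400000 and 52400001 to 52450000, are uncertain. Other lengths recurred too. The lengths 1445, 1738, 1832, 2656, 1078 and 544 bp ran from 53443402 to 53452694 and, in reverse order, from 53466451 to 53475743. The pair of 1668 and 5477 bp began at 52897378 and again at 52937623. The windows starting at 52850001, 52900001, 53400001 and 53450001 hold these fragments, so their read numbers may be uncertain too. The patterns were looked for after the values were seen, and there may be others.

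Beyond 2 Mb the captured share moved with fragment length. There, fragments up to 500 bp were captured at 39.9% ± 5.36, those of 1001 to 2500 bp at 63.2% ± 3.52, and those over 10000 bp at 88.6% ± 5.18 (SD, n = 4 libraries). Within 2 Mb the same classes were captured at 94.8% ± 2.08, 98.1% ± 2.45 and 98.8% ± 2.38, a narrower range. Scaled reads per fragment rose from 2.78 ± 0.265 in the shortest class to 18.6 ± 3.81 in the longest beyond 2 Mb. Within 2 Mb they rose from 26.9 ± 2.19 to 95.2 ± 9.73. Reads per kb ran the other way, from 103 ± 8.37 scaled reads per kb in the shortest class to 6.32 ± 0.647 in the longest within 2 Mb. Spearman's correlation of length with reads across the 636 fragments was 0.337, 0.343, 0.403 and 0.339. A restriction fragment has only its ends to ligate, and how far its length sets these levels was not tested.

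**Figure D3:**
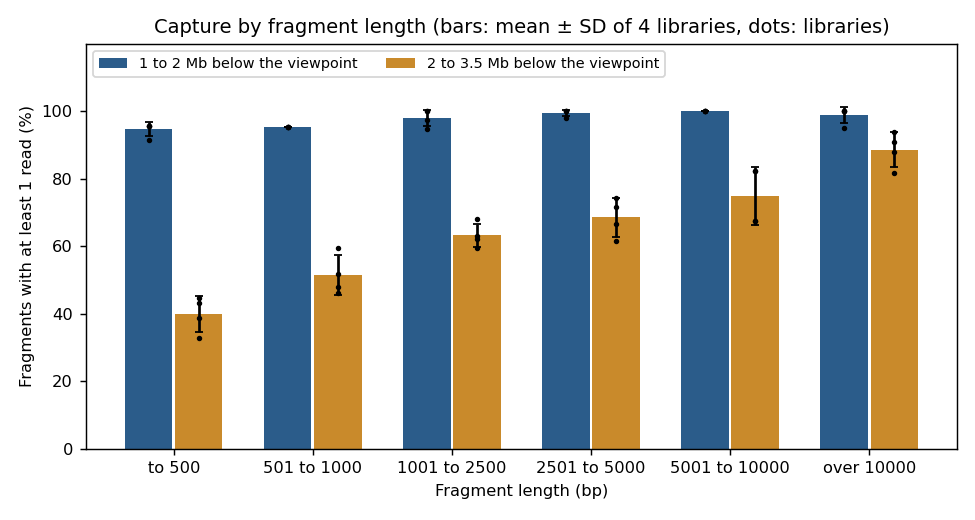
Share of fragments with at least 1 read, in percent, by fragment length in bp, for fragments 1 to 2 Mb and 2 to 3.5 Mb below the viewpoint; bars are means and error bars SDs of the 4 libraries. Beyond 2 Mb the bars climb from 39.9% to 88.6%, while within 2 Mb all stand between 94.8% and 100%.

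Local maxima were looked for as 50 kb windows whose reads per kb were at least 2 times the median of the windows starting within 250 kb of them, in each of the 4 libraries. In the stretch 0 of 51 windows met this, against 4 of 126 (3.17%) in the whole read-scored part, which includes the 51. Of these 4, the window starting at 55550001 lies around the viewpoint itself. Another, starting at 57400001, holds a fragment whose reads in SS13BN 2 were inferred, as described below. At 1.5 times, 1 of the 51 did, against 5 of 126 (3.97%), 53250001 to 53300000, centred 2.30 Mb below the viewpoint. It had 309, 762, 239 and 193 reads, which were 2.09, 2.23, 2.22 and 1.62 times the median of its neighbours. Only SS13BN 2 kept it under the bound of 2. Without SS13BN 2, 2 of the 51 windows passed that bound, against 6 of 126 (4.76%). The 6 include these 2 and the window around the viewpoint. The 2 in the stretch were the window at 53250001 and 52250001 to 52300000, which had 50, 177, 65 and 32 reads. The window at 53250001 lies in the class at 2.25 to 2.5 Mb that stood above the class nearer to the viewpoint.

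The 5 windows with the most reads per kb, by the median of the 4 libraries, had their centres within 1.5 Mb. The window 54100001 to 54150000, centred 1.45 Mb away, had 719, 1950, 622 and 1025 reads. The window 54500001 to 54550000 had 1152, 1455, 923 and 687 reads, and 54400001 to 54450000 had 684, 2251, 709 and 1048. These 3 stood at 27.5 ± 8.80, 22.1 ± 4.37 and 25.0 ± 7.84 scaled reads per kb (SD, n = 4), so their order lies within the spread. The window 54300001 to 54350000 had 732, 3423, 610 and 945 reads, and 54250001 to 54300000 had 936, 1867, 901 and 424. Every fragment of these 5 windows was captured in all 4 libraries.

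The windows with the fewest lay at the far end. The window 52300001 to 52350000 had 8, 19, 67 and 22 reads over 14 fragments. Its neighbour 52350001 to 52400000 had 11, 43, 23 and 7 reads over 12 fragments. The window 52000001 to 52050000, of which only the upper section belongs to the stretch, had 3, 41, 18 and 1 reads over 13 fragments. Their levels were 0.566 ± 0.571, 0.503 ± 0.232 and 0.589 ± 0.548 scaled reads per kb (SD, n = 4), which have no order beyond the spread.

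Single fragments repeated less closely than windows. The 10 fragments with the highest mean scaled reads all lay 1.10 to 1.69 Mb below the viewpoint and were 924 to 13124 bp long. The first by mean, 54153427 to 54157231, had 14, 1844, 41 and 157 reads. Its rank thus rests on SS 2. The fragment 54085242 to 54086165 had 25, 161, 586 and 31 reads, with the high value in SS13BN 1. The longest, 54473944 to 54487067, had 128, 0, 425 and 4 reads. Of the 10, 4 varied more than 10-fold between libraries after scaling or had no read in 1 of them.

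Among these 10, a smaller set was high in every library. The fragment 53876840 to 53882571, 1.69 Mb away, had 203, 220, 223 and 292 reads. These were 8.83, 3.86, 6.76 and 10.4 times the median of the fragments within 50 kb. The fragment 54324167 to 54331367, 1.246 Mb away, had 135, 438, 133 and 284 reads, 3.33, 2.93, 2.58 and 6.84 times its neighbours. The fragment 54043917 to 54049431 had 124, 245, 83 and 278 reads, 4.96, 2.53, 3.19 and 7.94 times its neighbours. The fragment 54312329 to 54315613 had 86, 459, 193 and 86 reads, 2.10, 3.14, 3.78 and 2.21 times its neighbours. These 4 were the members of the 10 that exceeded 2 times the neighbouring median in all 4 libraries, a bound set after their values were seen. The 10 were chosen for high reads in these same libraries, so standing above the neighbours is partly built in. The share of all fragments that meets this bound is not given here. They are 5732, 7201, 5515 and 3285 bp long, above the median length of the stretch.

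The remaining 3 had their high values in part of the libraries. The fragment 54346556 to 54352885 had 92, 982, 40 and 150 reads. The fragment 54315614 to 54324093 had 160, 799, 51 and 88 reads, and 54293432 to 54298988 had 207, 256, 284 and 35. The first of these was below the neighbouring median in SS13BN 1, the second also in SS13BN 1 and the third in SS13BN 2.

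**Figure D4:**
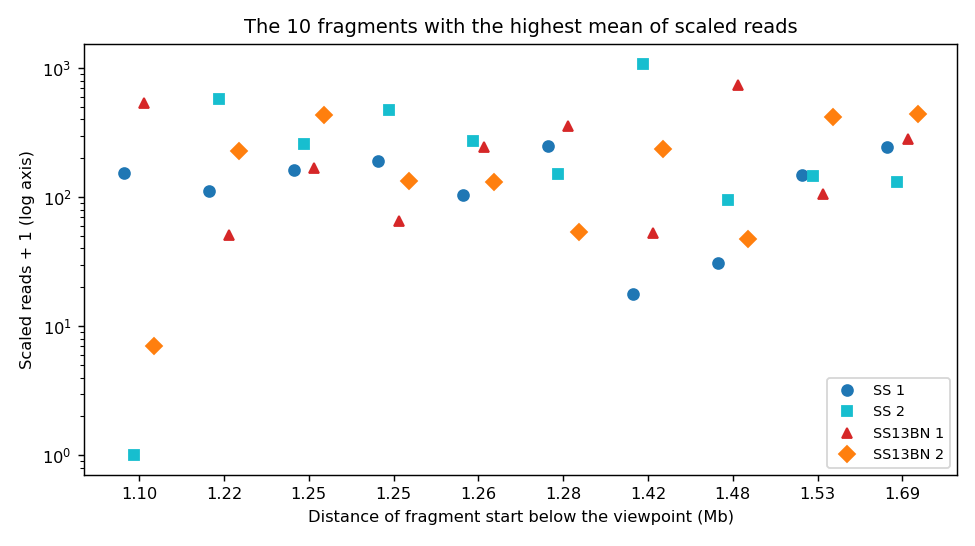
Scaled reads plus 1 (log axis) of the 10 fragments with the highest mean scaled reads, by the distance of each fragment's start below the viewpoint in Mb; each symbol is 1 library. The fragment at 1.69 Mb keeps its 4 libraries between 129 and 440 scaled reads, while the fragment at 1.42 Mb runs from 16.7 to 1083.

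The strains were compared fragment by fragment with limma on log2(scaled reads + 1), fitted on all 1356 fragments of the read-scored part that had a mean of at least 1 scaled read. Of the stretch, 545 fragments entered and 91 did not pass this filter. After Benjamini-Hochberg adjustment 0 of the 545 passed 0.05, with 0 of 1356 (0%) in the background. At an unadjusted limma p under 0.05 there were 3 of 545 (0.550%), against 9 of 1356 (0.664%). Both shares lie below the fraction of 0.05 expected if no fragment differed, so p-values and intervals of this fit may be conservative. In the fit with the replicate block, given at the end, 69 of 1356 (5.09%) met this bound. What sets these shares was not tested. The median half-width of the 95% interval of a fragment's log2 difference was 3.38, so differences of several fold between the strains were within the error of most fragments.

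The 3 fragments with the smallest p were thinly covered. The fragment 53858999 to 53860245, 1.71 Mb away, had 0, 1, 14 and 13 reads. Its log2 difference, SS13BN minus SS, was 3.96 (SE 1.58), with an unadjusted p of 0.0289 and an adjusted p of 0.9999 in limma. The fragment just below it, 53853424 to 53858998, named after its values were seen, had 12, 11, 59 and 42 reads and a log2 difference of 2.701 (SE 1.246). The fragment 52427694 to 52433303 had 0, 1, 20 and 7 reads, with a log2 difference of 3.79 (SE 1.60). The fragment 53500654 to 53502786 had 11, 50, 0 and 1 reads, with a log2 difference of -3.71 (SE 1.62). In each of these 4 the libraries of the strains did not overlap, and none passed the adjusted threshold.

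Non-overlap of this kind was common. With 2 against 2 libraries, an exact two-sided permutation test can give it no p below 0.333. After scaling, both libraries of 1 strain lay above both of the other in 132 of the 545 fragments (24.2%), against 314 of 1356 (23.2%) over the read-scored part, so the stretch stood near the background. SS13BN was the higher strain in 77 and the lower in 55, a split for which no background over all 1356 is given here. Among the 10 highest fragments 2 were of this kind. The fragment 53876840 to 53882571 had a log2 difference of 0.98 (SE 0.77), higher in SS13BN, and 54315614 to 54324093 one of -1.69 (SE 0.84).

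Windows gave the comparison more precision. In the 126 windows of 50 kb, 0 passed the adjusted threshold in limma (0%), and 0 of these lay among the 51 of the stretch. At an unadjusted p under 0.05 there were 0 of 51 in the stretch and 1 of 126 (0.794%) in all. The median half-width of the 95% interval was 1.21 on the log2 scale. The strains did not overlap in 12 of the 51 windows (23.5%), against 28 of 126 (22.2%), and SS13BN was higher in 6 of the 12 and lower in 6.

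The smallest p among the windows belonged to 53000001 to 53050000, 2.55 Mb away, which had 142, 408, 49 and 70 reads. Its log2 difference was -1.31 (SE 0.70), with an adjusted p of 0.993 in limma. Next came 52300001 to 52350000, one of the emptiest windows, with a log2 difference of 2.25 (SE 1.36) from 8, 19, 67 and 22 reads. The third, 54200001 to 54250000, had 128, 941, 348 and 403 reads and a log2 difference of 0.82 (SE 0.56). Without SS 1, which had the lowest value, that difference was -0.10.

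**Figure D5:**
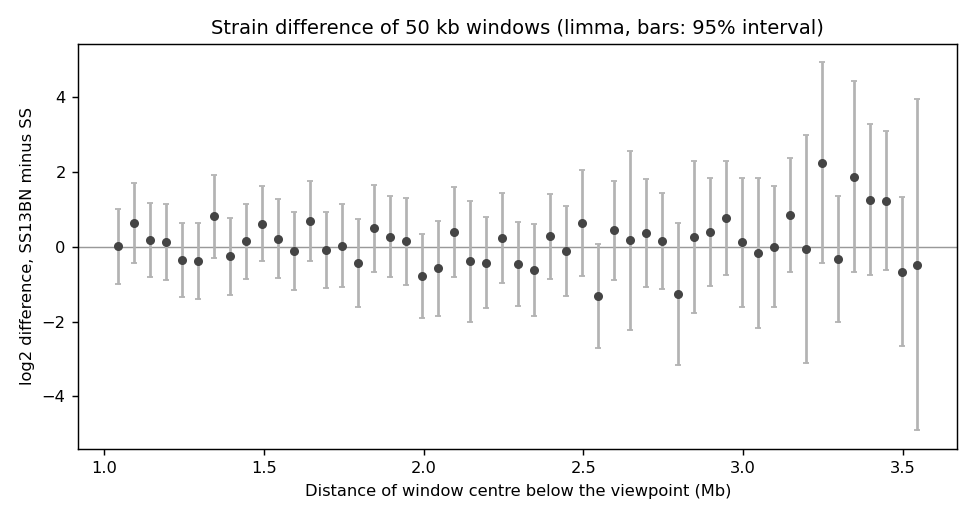
log2 difference between strains, SS13BN minus SS, for the 51 windows of 50 kb against the distance of the window's centre below the viewpoint in Mb, with 95% intervals from limma. The differences scatter to both sides of 0, 31 above and 20 below, and the intervals widen toward the far end where reads are few.

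Over the whole stretch the differences leaned slightly to SS13BN. The median log2 difference was 0.14 over the 545 fragments, against 0.03 over all 1356 tested, and 0.15 over the 51 windows, against 0.02 over 126. SS13BN was higher in 313 of the 545 fragments and in 31 of the 51 windows. The same counts over all 1356 fragments and 126 windows are not given here, so these have no background beside them. In windows the lean did not hold for every set of libraries. Without SS 1 the window median was -0.10, against -0.11 over all 126, and without SS13BN 2 it was -0.01, against -0.02. Without SS 2 and without SS13BN 1 it was 0.37 and 0.10, against 0.15 and 0.06. The fragment median of the stretch stayed positive, at 0.02, 0.31, 0.36 and 0.03 without SS 1, SS 2, SS13BN 1 and SS13BN 2. Over all fragments tested it was then -0.11, 0.16, 0.18 and -0.02.

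Libraries of the same strain did not resemble each other more than libraries of different strains. Across the 636 fragments, Spearman's correlation of reads was 0.636 for SS 1 with SS 2 and 0.632 for SS13BN 1 with SS13BN 2. Between strains it was 0.674 for SS 1 with SS13BN 1, 0.737 for SS 2 with SS13BN 2, 0.714 for SS 1 with SS13BN 2 and 0.614 for SS 2 with SS13BN 1. All libraries share the decline with distance. With distance removed, the values were 0.273 and 0.272 within strains. Between strains they were 0.355 and 0.480 for pairs with the same replicate number, and 0.357 and 0.291 for the other pairs. Of the 64 highest fragments of each library, 29 were shared by the SS libraries and 28 by the SS13BN libraries, 35 and 42 by the pairs with the same replicate number, and 25 and 27 by the other pairs. Over the 331 fragments captured in all 4 libraries, the correlations were 0.563 and 0.496 within strains. Pairs of different strains had 0.623 and 0.702 with the same replicate number, and 0.552 and 0.552 otherwise. There the same-numbered pairs were the highest, and the remaining cross-strain pairs stood near the same-strain pairs. What equal replicate numbers mark was not tested. In 50 kb windows the correlations ran from 0.852 to 0.913. These are descriptions over fragments of 1 chromosome.

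The mirror stretch on the upper side, 1 to 2.7 Mb above the viewpoint, is covered by 379 fragments, against 385 at the same distances below. Below, the reads per kb were 7.40, 19.5, 7.78 and 7.46. Above, they were 6.30, 15.1, 6.10 and 10.6. The lower side thus held 1.17, 1.29, 1.28 and 0.703 times the upper side, more in 3 libraries and less in SS13BN 2. The mean log2 ratio was 0.11 ± 0.42 (SD, n = 4; exact two-sided sign-flip permutation test, p = 0.625; the smallest possible is 0.125).

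A single fragment of the upper side weighed on this ratio. The fragment 57407684 to 57425902, 18219 bp long and 1.84 Mb above the viewpoint, had 2054, 2863 and 1449 reads in SS 1, SS 2 and SS13BN 1. For SS13BN 2 its table lists a score equal to 4792 reads, which does not fall on the steps of the other scores. The values above use 9727 reads, inferred as the number at which that library's scores, which sum to -14 as listed, sum to 0. In SS 1, SS 2 and SS13BN 1 the scores summed to 0.747, 1.83 and 1.79, so a sum of 0 is only approximate there. The inferred number also enters the total by which SS13BN 2 was scaled. With the listed score the mean log2 ratio was 0.23 (exact two-sided sign-flip permutation test, p = 0.25). With this fragment left out of all libraries, the lower side held 1.44, 1.44, 1.47 and 1.51 times the reads per kb of the upper side. The log2 ratio was then 0.55 ± 0.03 (SD, n = 4; exact two-sided sign-flip permutation test, p = 0.125), higher below in 4 of 4 libraries. This takes a high fragment from the upper side only, and none from the lower side. With the fragments of both sides bounded at each library's 99th percentile, the mean log2 ratio was 0.35 (exact two-sided sign-flip permutation test, p = 0.125). The median reads of captured fragments were likewise higher below, at 22 against 16, 55 against 41.5, 20 against 17 and 21 against 14. The captured share hardly differed, with 89.4%, 92.5%, 89.1% and 91.4% below and 87.3%, 92.3%, 86.0% and 90.2% above. The fragments were of like length, with a median of 2997 bp below and 3362 bp above.

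The lower side also fell more steeply. In a line fitted to log2 reads per kb on log2 distance between 1 and 2.7 Mb, the slope was -2.55, -2.48, -2.74 and -2.71 below and -1.51, -1.69, -2.01 and -1.90 above. The slope below was steeper in 4 of 4 libraries, by -0.84 ± 0.14 (SD, n = 4), with single differences from -1.04 to -0.72 (exact two-sided sign-flip permutation test, p = 0.125, the smallest possible). This comparison was added after the data were seen. Over the full 1 to 3.5 Mb the slope of the lower side was -3.00 ± 0.13 (SD, n = 4).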

How the data were processed

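The submitters' processing notes name build rn5 and CASAVA 1.8; the aligner and read filters were not given in the sources used here. Each library's table of scores was deposited by the authors. Coordinates are as in the tables and may lie 1 base from a browser's. Near the viewpoint a deposited score was taken to be a captured fragment's reads minus the mean, divided by the SD. This form was inferred from the scores themselves, and their sums, given above, meet it only approximately. Reads were recovered from the score steps, taking the lowest captured fragment as 1 read. Neighbouring fragments without reads share 1 row, so fragments were taken from the starts of all 6 tables. A fragment belongs to the window of its start.

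Strains were compared with limma 3.58.1 (R 4.3.3; intensity trend, pseudocount 1), with p-values adjusted over everything tested, after a test on simulated data, and with exact permutation tests. The named pieces are the 10 highest fragments, the 5 highest and 3 lowest windows, the windows raised over their neighbours, the 3 smallest p-values of each kind, the 5 longest fragments without reads and both ends. The members and lists were chosen with earlier results of these data known. No rn5 annotation was used, so no gene is placed on a fragment. Alternatives covered filters, scaling, pseudocounts, thresholds and left-out libraries.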

Additional observations from a re-analysis of the deposited data

Results flagged for a closer look

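The tables of replicate 3 list chromosome 13 at 0, so they entered no comparison, but their rows in the stretch are still drawn in 2 sizes: single fragments, and runs of neighbouring fragments merged into 1 row. In the 4 scored libraries a merged row is a run without reads. In the table of SS 3, 42.0% of the 636 fragments (267) lay in merged rows, and in that of SS13BN 3, 31.9% (203). In SS 1, SS 2, SS13BN 1 and SS13BN 2 the share was 24.8%, 17.1%, 16.5% and 20.4%. These values were singled out because they are a pattern in data that the comparisons do not use.

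The merging in both tables moved with distance. In SS 3, the starts without a row of their own made up 5.45% at 1 to 1.5 Mb, 13.6% at 1.5 to 2 Mb, 33.1% at 2 to 2.5 Mb, 34.4% at 2.5 to 3 Mb and 61.8% at 3 to 3.5 Mb. In SS13BN 3 they made up 2.73%, 4.85%, 25.6%, 32.8% and 37.6%. In the scored libraries they made up 0% to 0.971% up to 2 Mb and 25.5% to 46.1% at 3 to 3.5 Mb. Whether the zeros of these tables hide reads was not tested.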

How the results depend on the processing

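No fragment or window of the stretch passed the adjusted limma threshold under any of the 14 alternatives for fragments and 15 for windows. The strain difference in the share of reads ran from -0.787 to 1.65 points with single libraries left out. That in the captured share ran from -2.59 to 4.48 points, and was -0.236 at 2 reads and -5.66 at 10 reads. The log2 difference of the window at 54200001 ran from -0.10 (without SS 1) to 1.75. Raised windows numbered 1 at 1.5 times the neighbours and 0 to 2 with single libraries left out. The ratio of near to far reads, the ratio of lower to upper side and the difference of slopes kept their direction under the alternatives run for each; the cause of the reversals was not tested.

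The labels do not say that equal replicate numbers mark a shared batch, and with 2 pairs the numbers were not taken as pairs. The deviations of same-numbered libraries correlated at 0.136 over 545 fragments and 0.245 over 51 windows. With the replicate block in limma, 0 fragments and 0 windows of the stretch passed, against 0 of 1356 fragments and 1 of 126 windows (0.794%) over the read-scored part. An unadjusted p under 0.05 was met by 26 of the 545 fragments, against 69 of 1356 (5.09%), and by 1 of the 51 windows, against 4 of 126 (3.17%). In this balanced design a block cannot move a difference of strain means, which is 0.432 points for the share of reads, 0.943 points for the captured share and 0.11 for the near-to-far ratio. Depth was 138360 to 355377 reads outside 10 kb of the viewpoint, with a median of 12 to 29.5 reads per captured fragment. Single-fragment values are uncertain, and how far depth or amplification sets their spread was not tested.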
